A study of Mus musculus with 4 samples.

Results

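The receptor tyrosine kinases of the ErbB, FGF and insulin families carry growth factor signals from the cell surface into oligodendrocytes, the glia that make myelin in the brain and spinal cord. The 9 receptor genes examined were Egfr, Erbb2, Erbb3 and Erbb4 (ErbB family), Fgfr1, Fgfr2 and Fgfr3 (FGF family), and Igf1r and Insr (insulin family). They were chosen by name, and each matched 1 of the 35869 gene rows of the deposited table. The cells came from mouse cortex at postnatal day 5 and were sorted by flow cytometry for 2 surface lipids, O4 and GalC, which late precursors and differentiating oligodendrocytes carry. The groups were WT mice, the controls (2 libraries, WT 1 and WT 2) and mice labelled Zfp488 KO (2 libraries, KO 1 and KO 2), which carry the Zfp488 knock-in on both alleles, Zfp488 being a zinc finger gene of the oligodendrocyte lineage. The study concerns when oligodendrocytes start to make myelin, and the comparison asks which receptor transcripts differed when Zfp488 was disrupted.

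Receptors of these families work as pairs on the membrane that phosphorylate each other on tyrosine when a ligand binds. ErbB3 and ErbB4 bind neuregulins, EGFR binds EGF-like ligands such as TGF-alpha, and ErbB2 has no known ligand of its own and acts as a partner. ErbB3 has very weak kinase activity and depends on that partner. In this lineage FGF signalling keeps precursors dividing, FGFR1 is known from precursors, FGFR3 from late progenitors and FGFR2 from differentiated oligodendrocytes, and insulin-like growth factor supports survival and myelination.

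Values are FPKM, fragments normalised to transcript length and to the mapped fragments of the library, so levels of different genes can be set side by side per length. They summed to between 311846 and 341145 per library, and Spearman's correlation between libraries lay between 0.859 and 0.884. Low values stepped by whole reads, and from those steps 1 FPKM on a transcript of 1 kb was worth roughly 37.2 (WT 1), 43.9 (WT 2), 39.8 (KO 1) and 39.4 (KO 2) reads. The labels name no animals, so p-values measure only the spread between libraries, which may be technical, and they do not describe the design of the knock-in allele. Zfp488 was at 6.61 and 5.29 FPKM in WT against 4.82 and 4.11 in KO (log2 difference -0.34, SE 0.33, limma adjusted p = 0.95), which checks the labels only weakly. Lineage markers were high throughout: the 10 genes of that list, among them Olig1, Olig2 and Sox10, summed to between 2548 and 2955 FPKM, and each was at 1 FPKM or more in every library. One label calls the cells a cell line, whereas the series describes sorted tissue.

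In KO libraries Erbb3 and Fgfr1 were read at higher levels than in either WT library, and Erbb4, Fgfr2 and Fgfr3 at lower levels. The groups overlapped for Egfr, Erbb2, Igf1r and Insr. None of the differences passed the test over all genes (limma, 0 of 10754 rows at an adjusted p under 0.05, that is 0%, and smallest adjusted p = 0.859). At an unadjusted p under 0.05 there were 608 rows (5.65%), with Erbb3 as the only one of the 3 receptors in that test. The table holds many rows of similar level whose groups do not overlap: of 8391 rows with a mean FPKM from 0.02 to 1.5, a range set to span the receptors, both KO libraries were above both WT libraries for 16.7% and below for 11.5%. Over all 9 receptors the median difference of log2(FPKM + 1), KO minus WT, was -0.04, beside 0.028 over the rows of that level range. In bulk RNA, fewer cells of a type and less RNA per cell cannot be told apart.

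**Figure D1:**
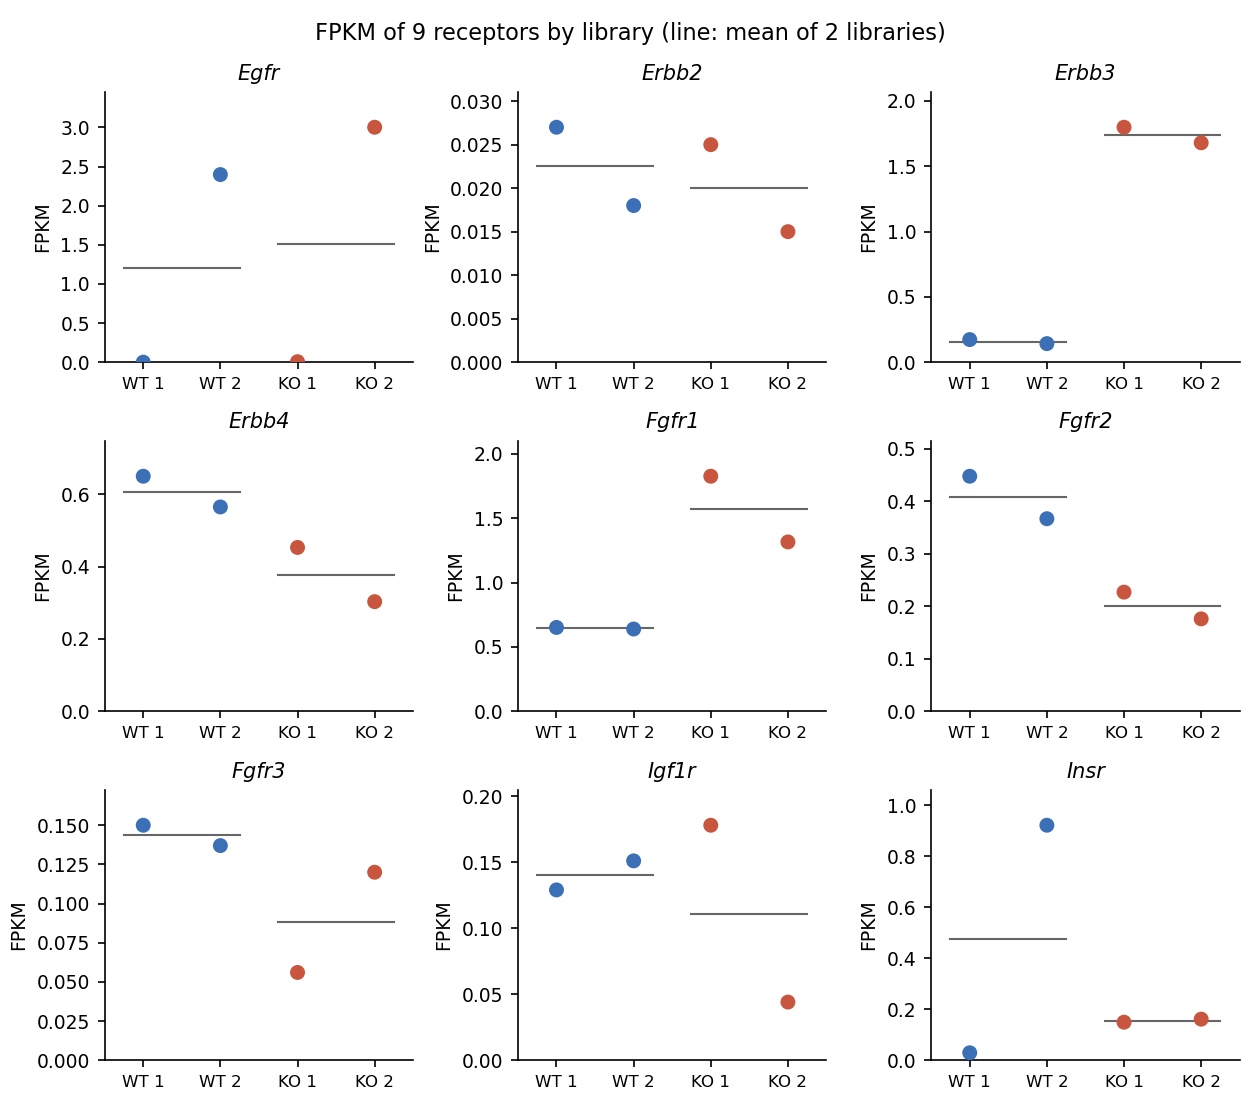
FPKM of each of the 9 receptors (vertical axes from 0, a scale of its own in each panel) in the 2 WT libraries (blue) and the 2 KO libraries (red), with a line at the mean of each pair. Erbb3 and Fgfr1 lie higher in both KO libraries, Erbb4, Fgfr2 and Fgfr3 lower, and Egfr is at 2.40 and 3.003 FPKM in the libraries numbered 2 and near 0 in those numbered 1.

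The receptors were lowly expressed. Their highest value was 3.003 FPKM, and 6 of 36 values reached 1 FPKM. Among 20350 protein-coding rows, whose median level was 0.488 FPKM, the mean of the 4 libraries put Egfr at percentile 60.3, Fgfr1 at 58.1, Erbb3 at 56.6 and Erbb4 at 50.1. Insr was at percentile 46.2, Fgfr2 at 45.9, Igf1r at 40.0, Fgfr3 at 39.6 and Erbb2 at 34.3. Receptor transcripts are long, and long transcripts had lower values: the median over coding genes whose longest transcript was within 20% of that of Fgfr3 (4245 bp) was 1.12 FPKM, and 0.214 FPKM for those near Erbb4 (12037 bp). Among coding genes whose longest transcript was within 20% of its own, Egfr (10208 bp) stood at percentile 78.4, Erbb4 at 64.4 and Igf1r (11409 bp) at 37.8, whereas Erbb2 (5012 bp) stood at 21.8.

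A filter of at least 1 FPKM in at least 2 libraries, set for the test, left 3 of the 9 receptors, namely Erbb3, Fgfr1 and Egfr. Erbb3 and Fgfr1 passed it only through the KO libraries, so they had to be higher there, and Egfr passed through the libraries numbered 2. With no filter all 9 were tested together with every row above 0 in a library, and Erbb3 alone had an unadjusted p under 0.05 (limma adjusted p = 0.865), beside 4.9% of the 22897 rows. In the filtered test that unadjusted call was lost when WT 2, KO 1 or KO 2 was left out.

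A microRNA locus inside Erbb3 has a row of its own, and its sequence is shown because the hairpin marks the place in the intron to which those reads were assigned. Erbb3 encodes the neuregulin receptor with the weak kinase and lies at chr10:128567523-128589635 on the minus strand (GRCm38). Mir6917 lies on that strand at chr10:128584437-128584497, in the intron between exons 3 and 4 of 28 in the GENCODE transcript. That intron has 575 bp, and 0 bp separate the end of the hairpin from exon 4. In the RefSeq sequences (GRCm38.p6), 5′ to 3′, capitals mark the mature arm in the hairpin and the seed, bases 2 to 8, in the mature microRNA.
Mir6917 hairpin: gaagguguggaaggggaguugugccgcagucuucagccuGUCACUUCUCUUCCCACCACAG
miR-6917-3p: gUCACUUCucuucccaccacag
The seed occurs in 1 of 1738 mature mouse microRNAs of that reference, miR-6917-3p itself.

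The level of Erbb3 was 0.173 (WT 1) and 0.142 FPKM (WT 2) against 1.80 (KO 1) and 1.68 FPKM (KO 2). The groups did not overlap, and the gap between them was far wider than the spread within either. The means were 0.157 ± 0.0219 and 1.74 ± 0.0841 FPKM (SD, n = 2), an 11-fold ratio, and with the longest transcript (6016 bp) the values stand for about 39, 37, 431 and 399 reads. On the log2(FPKM + 1) scale, which understates the change of a gene this low, the difference was 1.24 (SE 0.36). It did not pass (limma adjusted p = 0.859, and 0.438 to 1 over the alternatives). Tested genes of like transcript length had a median difference of 0.107. Under the 13 alternatives the difference lay between 1.154 and 2.84. As the groups do not overlap, only a change of scaling could have reversed its sign.

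Mir6917 was listed at 0 FPKM in both WT libraries and reached 1.64 FPKM in KO 1 and 2.51 FPKM in KO 2 (limma adjusted p = 0.859). On a locus of 61 bp these values stand for about 4 and 6 reads. Mir6917 passed the filter only through the KO libraries, so it had to be higher there. As its row lies within Erbb3 and rests on very few reads, it is not evidence apart from Erbb3. Reads of unspliced Erbb3 and of a processed microRNA cannot be told apart here.

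Erbb3 was thus sixth of the 9 receptors by mean level in WT and first in KO. In WT its range overlapped that of the next receptor in the order, Fgfr3 (0.15 and 0.137 FPKM), and lay below that of the one before it, Fgfr2. In KO its range overlapped that of Fgfr1.

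Egfr, the EGF and TGF-alpha receptor, lies at chr11:16752203-16913907 on the plus strand. The libraries numbered 1 listed it at 0 (WT 1) and 0.006 FPKM (KO 1), and those numbered 2 at 2.40 (WT 2) and 3.003 FPKM (KO 2). Each genotype thus had 1 library with Egfr and 1 almost without it. With the longest transcript these are about 0, 2, 1074 and 1212 reads, in the order WT 1, KO 1, WT 2, KO 2. The group means were 1.20 ± 1.70 and 1.5 ± 2.12 FPKM (SD, n = 2), and the log2 difference of 0.12 (SE 0.92, limma adjusted p = 0.995) changed sign when WT 1 or KO 2 was left out (-0.76 and -0.87).

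Summed markers of other cell types followed the same library numbers, though some single markers did not. The 9 endothelial and mural markers summed to 0.454 and 7.38 FPKM in WT 1 and KO 1 and to 74.0 and 66.5 FPKM in WT 2 and KO 2. At 1 FPKM or more were 0, 1, 4 and 4 of them, in the order WT 1, KO 1, WT 2, KO 2, and Cldn5, the claudin of blood vessel endothelium, was at 0, 0.035, 26.8 and 26.3 FPKM. Pecam1, another endothelial marker, was at most 0.002 FPKM, and Flt1, also of that list, was at 1.20 FPKM in WT 2 but 0 in KO 2. The astrocyte list summed to 125.8 and 181.9 FPKM in the libraries numbered 1 and to 245.3 and 343.3 FPKM in those numbered 2, with Gja1, an astrocyte connexin, at 1.10, 3.35, 37.9 and 25.9 FPKM. The microglia list summed to 61.5 and 56.7 against 133.1 and 145.5 FPKM. The part of such cells in the Egfr values was not tested, and a listed 0 can also be a failed estimate.

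**Figure D2:**
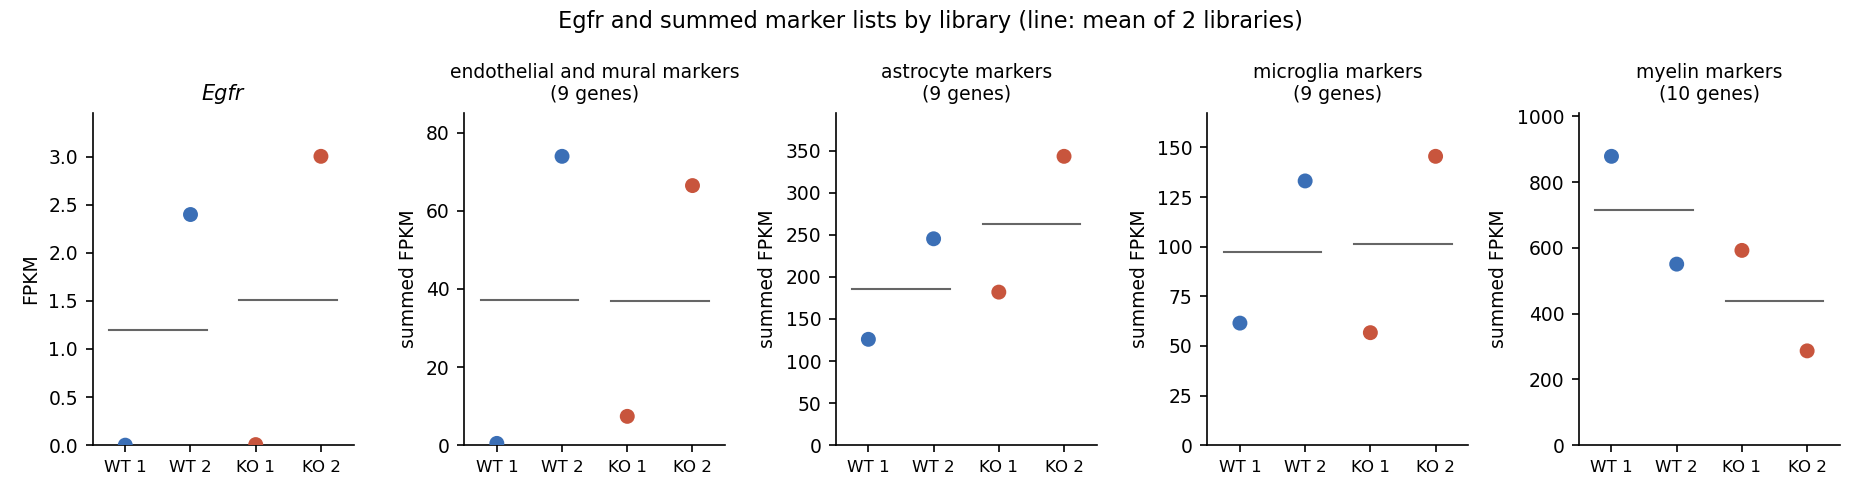
FPKM of Egfr and the summed FPKM of 4 marker lists (vertical axes from 0, a scale of its own in each panel) in the WT (blue) and KO (red) libraries, with a line at the mean of each pair. Egfr and the endothelial, astrocyte and microglia sums are higher in the library numbered 2 of each genotype, and the myelin sum is lower there.

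The rows whose centred log2 values came nearest to those of Egfr over the 4 libraries were Aurka (Euclidean distance 0.085), Mlc1 (0.12) and Tpx2 (0.12), of 10754 tested rows. Aurka, a mitotic kinase, was at 3.91 and 3.77 FPKM in the libraries numbered 1 and at 14.5 and 18.7 FPKM in those numbered 2. Mlc1, a membrane protein of astrocytes, and Tpx2, a spindle protein, were likewise higher in the libraries numbered 2. In all, 77 rows were at 1 FPKM or more in both libraries numbered 2 and below 0.05 FPKM in both numbered 1, and 36 rows had the opposite pattern. Among the rows nearest to Erbb3 were Uprt (distance 0.065), which was listed at 0 in both WT libraries and at 1.53 and 1.31 FPKM in the KO ones, and the potassium channel gene Kcns1 (0.13). With 4 libraries these distances only describe the order of the values.

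Erbb4, a neuregulin receptor with an active kinase, lies at chr1:68031884-69108576 on the minus strand. It was at 0.650 and 0.565 FPKM in WT against 0.453 and 0.303 in KO. Both KO values were lower, by 1.61-fold between the means. The log2 difference was -0.22 (SE 0.16 and limma adjusted p = 0.865 with no filter). It was negative under all 13 alternatives, of which only the changes of scaling could have reversed it, as the groups do not overlap. Erbb4 is also a gene of cortical interneurons. The neuron list summed to 14.8 and 31.8 FPKM in WT and to 24.0 and 38.7 FPKM in KO, most of it Tubb3 and Snap25, which are not particular to interneurons. Among interneuron genes of the list, Gad1 and Gad2 were at most 0.922 and 1.34 FPKM. Slc32a1, the GABA transporter of synaptic vesicles, was at 0.354 FPKM in WT 1 and at most 0.027 FPKM in the other libraries. In WT 1, Gad1 was at 0.261 FPKM and Gad2 at 0.003 FPKM, whereas Slc32a1 was at its highest there. These low values thus did not share an order of libraries. Dlx2, a transcription factor of interneuron precursors, was at 0 and 0.055 FPKM in WT against 3.65 and 4.84 in KO. Dlx1 was at 0 FPKM in WT 1 and at most 0.396 FPKM. The part of interneurons in the Erbb4 values was not tested.

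Erbb2, the shared partner of the family, lies at chr11:98412484-98437716 and was close to absent from the table. It was at 0.027, 0.018, 0.025 and 0.015 FPKM in WT 1, WT 2, KO 1 and KO 2, about 3 to 5 reads per library. The groups overlapped (log2 difference -0.0035, SE 0.011, limma adjusted p = 0.966 with no filter), and from so few reads a small or downward difference could not be detected. Its last 9 bp are shared with Mien1, which was far higher (236.6 and 245.5 FPKM in WT against 164.8 and 146.3 in KO). The 4 ErbB receptors summed to 0.850 and 3.12 FPKM in WT and to 2.28 and 5 FPKM in KO, so the groups overlapped. Summed without Egfr, the family stood at 0.850 and 0.725 FPKM in WT against 2.28 and 2 in KO, and most of the KO sum was Erbb3.

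Fgfr1 (chr8:25518759-25575718, plus strand) was at 0.651 and 0.639 FPKM in WT against 1.83 and 1.32 in KO. The WT libraries were almost equal and both KO libraries lay above them, though apart from each other. The means were 0.645 ± 0.00849 and 1.57 ± 0.361 FPKM (SD, n = 2), a 2.44-fold ratio and a log2 difference of 0.64 (SE 0.37), which did not pass (limma adjusted p = 0.915). Under the 13 alternatives it lay between 0.494 and 1.149, and tested genes of like transcript length had a median of 0.127.

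A row inside Fgfr1 was also higher in both KO libraries. Gm16159, a non-coding RNA annotated antisense to Fgfr1 (chr8:25548673-25556083), was at 1.66 and 2.22 FPKM in WT against 4.55 and 3.22 in KO, a 2-fold ratio of means (log2 difference 0.72, SE 0.37, limma adjusted p = 0.914). GENCODE gives it 1199 bp of exon, of which 164 bp are shared with Fgfr1 exons. How strand was handled in counting is not stated in the labels, so reads of the sense and antisense genes cannot be told apart. Within KO, KO 1 was higher than KO 2 in both rows, whereas within WT, Gm16159 was higher in WT 2 and Fgfr1 slightly higher in WT 1.

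**Figure D3:**
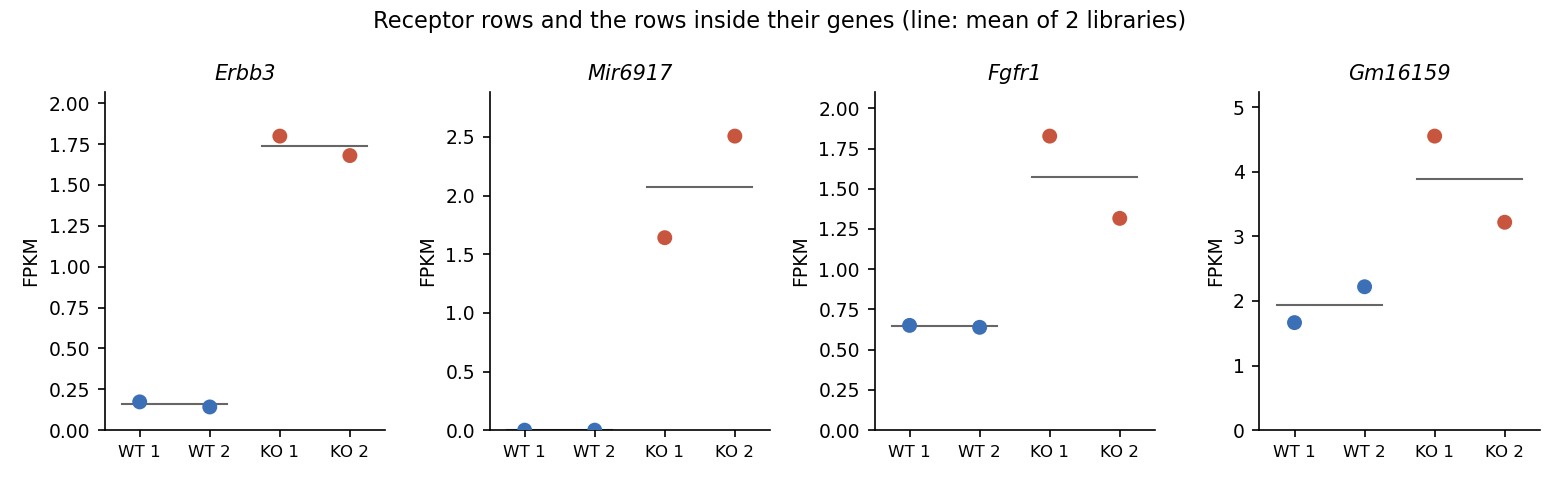
FPKM (vertical axes from 0, a scale of its own in each panel) of Erbb3 and of Mir6917 inside it, and of Fgfr1 and of Gm16159 inside it, in the WT (blue) and KO (red) libraries, with a line at the mean of each pair. In all 4 rows both KO libraries lie above both WT libraries, and Mir6917 is listed at 0 in WT.

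Fgfr2 (chr7:130162451-130266808, minus strand) went the other way from Fgfr1, with 0.448 and 0.367 FPKM in WT against 0.227 and 0.176 in KO, 2.02-fold lower between the means. Both KO values were below both WT values, and the log2 difference was -0.23 (SE 0.078, limma adjusted p = 0.865 with no filter). With the longest transcript these values stand for about 74, 71, 40 and 31 reads. Fgfr3 (chr5:33721724-33737068, plus strand) was at 0.15 and 0.137 FPKM in WT against 0.056 and 0.120 in KO, about 9 to 26 reads. Its KO values were the lower ones, but KO 2 was close to WT 2 (log2 difference -0.072, SE 0.039, adjusted p = 0.865). Fgfr3 is also a marker of astrocytes, whose list includes it and summed highest in KO 2, as given above. Most of that sum was Slc1a3 and Sox9 (187.0 and 85.2 of 343.3 FPKM). Gja1 and Slc1a2 were highest in WT 2, and the other members apart from Fgfr3 in KO 2. The part of astrocytes in the Fgfr3 values was not tested.

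Within the FGF family the values above can also be given as a share and a ratio. Fgfr1 made up 52.1% and 55.9% of the summed FPKM of the 3 receptors in WT and 86.6% and 81.6% in KO. The ratio of Fgfr1 to Fgfr2, taken within each library, was 1.45 and 1.74 in WT and 8.05 and 7.48 in KO. Fgfr1 was higher and Fgfr2 and Fgfr3 were lower in both KO libraries, so the share and the ratio had to differ by genotype. A ratio within a library does not change with the scaling of that library. It restates the values of the 2 receptors and was not tested.

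Markers of cell stage are given beside these values. The 10 myelin markers, such as Mbp and Mog, summed to 878.8 and 550.8 FPKM in WT and to 592.6 and 286.9 FPKM in KO, and Pdgfra, the PDGF receptor of precursors, was at 18.5 and 26.8 FPKM in WT against 40.2 and 42.5 in KO. The part of cell stage in the values of Erbb3, Fgfr1 and Fgfr2 was not tested. Of the 10 myelin markers, 6 were lower in both KO libraries, beside 18.3% of all tested rows, and 4 overlapped between groups. The myelin sums overlapped too, and within each genotype the sum was lower in the library numbered 2. Opalin, a late myelin gene, was at 1.87 and 3.69 FPKM in WT and listed at 0 in both KO libraries. Opalin passed the filter only through the WT libraries, so it had to be lower in KO.

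The insulin family showed no separation. Igf1r (chr7:67952257-68233668, plus strand), the receptor of IGF-1, was at 0.129 and 0.151 FPKM in WT against 0.178 and 0.044 in KO. The highest and the lowest value were both from KO libraries, and the log2 difference of -0.04 (SE 0.073, limma adjusted p = 0.932 with no filter) changed sign without KO 2. Insr (chr8:3150922-3279649, minus strand), the insulin receptor, was at 0.029 and 0.922 FPKM in WT against 0.149 and 0.161 in KO. A single library, WT 2, was high, and the difference of -0.28 (SE 0.36, adjusted p = 0.892 with no filter) changed sign without it.

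In WT the order of mean levels was Egfr, Fgfr1, Erbb4, Insr, Fgfr2, Erbb3, Fgfr3, Igf1r and Erbb2. Neighbours overlapped in range except at 2 steps, from Fgfr2 down to Erbb3 and from Igf1r down to Erbb2. In KO the order was Erbb3, Fgfr1, Egfr, Erbb4, Fgfr2, Insr, Igf1r, Fgfr3 and Erbb2, and neighbours were apart from Erbb4 down to Fgfr2, from Fgfr2 down to Insr and from Fgfr3 down to Erbb2.

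Genes around the receptors were taken from 9 lists of ligands, accessory proteins and signalling proteins. No gene of these lists passed the test (limma, adjusted p under 0.05). Across all 10754 tested rows, whose median difference was 0 on the log2 scale, both KO libraries were above both WT libraries for 16.6% and below for 18.3%.

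Some ErbB ligands were far more abundant than the receptors. Tgfa, which encodes TGF-alpha, a ligand of EGFR, was at 39.8 and 42.1 FPKM in WT against 80.4 and 52.3 in KO (log2 difference 0.65, SE 0.27, adjusted p = 0.885). Hbegf, which encodes a ligand of EGFR and ErbB4, was at 9.54 and 11.9 FPKM in WT against 16.9 and 12.6 in KO. Nrg4, a neuregulin for ErbB4, overlapped between groups (2.24 and 2.15 FPKM in WT, 1.62 and 2.82 FPKM in KO). The other 8 ErbB ligands did not pass the filter, Nrg1 being at most 0.106 FPKM and Areg, Btc, Epgn and Ereg listed at 0 in all libraries. Thus of 3 tested ligands 2 were higher in both KO libraries and 0 lower (median difference 0.421).

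FGF ligands were near 0, and 1 of 18 was tested. Fgf7, known as keratinocyte growth factor, was at 1.34 and 2.79 FPKM in WT and listed at 0 in both KO libraries (limma adjusted p = 0.859). Fgf7 passed the filter only through the WT libraries, so it had to be lower in KO. Others reached 1 FPKM in a single library each, namely Fgf5 in WT 1 (2.90 FPKM), Fgf18 in WT 2 (1.16) and Fgf22 in KO 1 (1.12).

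Insulin genes Ins1 and Ins2 were listed at 0, Igf1 was at most 0.078 FPKM, and Igf2 was at 0.033 and 0.950 FPKM in WT against 0.121 and 1.09 in KO, the order of library numbers seen for Egfr. Some IGF-binding proteins, which hold IGFs outside the cell, were abundant. Igfbp2 was at 56.5 and 129.6 FPKM in WT against 87.3 and 125.4 in KO, and Igfbp3 at 20.8 and 30.4 FPKM in WT against 23.9 and 38.5 in KO. Igfbp4 averaged 41.0 and 43.8 FPKM in WT and KO, and Igfbp7 16.5 and 14.7 FPKM. Igfbp5 was low, at 0 and 1.91 FPKM in WT against 0.334 and 1.99 in KO, again higher in the libraries numbered 2. All 5 tested members of this list overlapped between groups (median difference 0.226).

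Among accessory receptors, Sdc3, the syndecan whose heparan sulphate binds growth factors, was at 24.7 and 18.9 FPKM in WT against 49.7 and 28.0 in KO (log2 difference 0.76, SE 0.35, adjusted p = 0.902). Gpc4, a glypican, was at 3.202 and 1.70 FPKM in WT against 0.672 and 0.762 in KO (-0.97, SE 0.41, adjusted p = 0.885). These were the only members of the 5 tested whose groups did not overlap. Gpc4 passed the filter only through the WT libraries, so it had to be lower in KO. Fgfrl1, an FGF receptor that lacks the kinase domain, was at 14.1 to 18.8 FPKM, above Fgfr1, Fgfr2 and Fgfr3. Fgfr4, a further FGF receptor with a kinase, was at most 0.027 FPKM.

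Adaptors link receptors to signalling enzymes, and of 16 tested, 5 lay above both WT libraries in both KO libraries and 2 below (median 0.197). Plcg1, the phospholipase recruited by FGF receptors, was at 1.62 and 0.704 FPKM in WT against 2.74 and 6.06 in KO (1.28, SE 0.49, limma adjusted p = 0.87). Frs2, the docking protein of FGF receptors, was at 1.19 and 1.5 FPKM in WT against 1.92 and 4.39 in KO (0.76, SE 0.45). Irs2, the docking protein of the insulin and IGF-1 receptors, was the most abundant adaptor and overlapped between groups (46.0 and 27.6 FPKM in WT, 35.7 and 16.4 FPKM in KO).

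Of 9 tested inhibitors and turnover proteins, 3 lay above both WT libraries in both KO libraries and 1 below (median 0.287). Socs3, an inhibitor of cytokine and insulin signalling, was at 1.11 and 0.790 FPKM in WT against 3.60 and 1.30 in KO. Ptpn1, the phosphatase that removes phosphate from the insulin receptor, was at 6.81 and 10.6 FPKM in WT against 10.9 and 17.7 in KO. Nedd4, a ubiquitin ligase, was at 41.4 and 40.8 FPKM in WT against 49.5 and 51.2 in KO (0.29, SE 0.19). Lrig1, a negative regulator of ErbB receptors, did not pass the filter and was at 0.013 and 0.072 FPKM in WT against 0.770 and 0.260 in KO.

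Below the receptors lie the kinase cascades. In the PI3K, Akt and mTOR list, both KO libraries lay above both WT libraries for 1 of 14 tested genes and below for 2 (median 0.143). Pik3ca, the catalytic PI3K subunit, was at 1.67 and 2.98 FPKM in WT against 0.495 and 1.27 in KO. Foxo1, a transcription factor that Akt keeps out of the nucleus, averaged 2.13 and 3.39 FPKM in WT and KO, and Rheb, the GTPase that activates mTOR, 152 and 139 FPKM, both with overlap. In the Ras, Raf and ERK list, 2 of 11 were higher and 1 lower (median -0.121). Rps6ka1, an ERK-activated kinase, averaged 1.38 and 2.50 FPKM in WT and KO, and Mapk3, which encodes ERK1, 47.6 and 38.2 FPKM.

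Among 13 tested genes of the other receptor tyrosine kinases, 5 were higher and 1 was lower in both KO libraries (median 0.668). Ror2 and Kit passed the filter only through the KO libraries, so they raise both this count and this median. Ror2, a Wnt receptor, was at 0.007 and 0.345 FPKM in WT against 3.48 and 5.07 in KO (limma adjusted p = 0.859). Kit, the stem cell factor receptor, was at 0.017 and 0.033 FPKM in WT against 2.03 and 3.14 in KO (limma adjusted p = 0.859). Pdgfra was the most abundant of the list (log2 difference 0.86, SE 0.26, adjusted p = 0.859), and at 32.0 FPKM over all libraries it stood far above each of the 9 receptors.

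**Figure D4:**
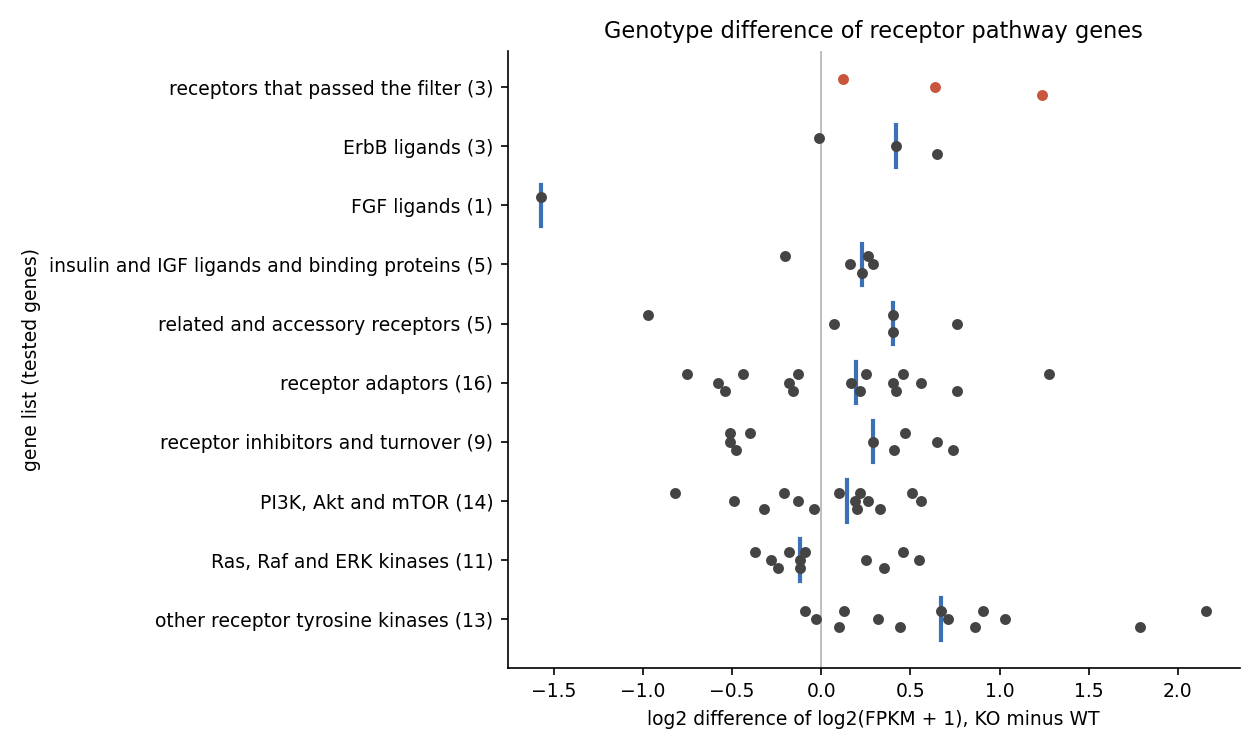
Difference of log2(FPKM + 1), KO minus WT (horizontal axis), of each tested gene (points, spread vertically only to part them) in the 9 lists around the receptors, with the median of each list (blue bar), and of the 3 receptors that passed the filter (red, with no median). Values of most lists lie on both sides of 0, and the list of other receptor tyrosine kinases, with a median of 0.668, includes 2 genes that passed the filter only through the KO libraries.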

How the data were processed

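RNA was measured in 4 libraries, 2 per genotype. The table that the authors deposited gives FPKM for each gene and library. TopHat, with no version, and the build mm10 are named in the submitters' processing notes. The program that estimated FPKM, the annotation, the strand setting and filters were not stated there or in the labels. No read totals come with it. The worth of 1 read was taken from the commonest low value times transcript length among genes with 1 GENCODE M21 transcript, and read numbers are approximate.

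Values were analysed as log2(FPKM + 1) without further scaling. Rows with at least 1 FPKM in at least 2 libraries (10754) entered a linear model per row (limma 3.58.1, R 4.3.3; genotype as the only term, trended empirical Bayes variances, p-values adjusted over all rows tested by Benjamini-Hochberg, threshold 0.05, two-sided). The script was tested on simulated data, where finding changes was required only at a spread below that of these data. That check does not show what 2 libraries per group can detect here. Errors marked SE are those of the log2 difference. The 13 alternatives changed the pseudocount, filter, scaling, variance model or replicate block, or left out 1 library.

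The receptors and lists were chosen with earlier results of these data known, so no test was made over a list. All receptors are named. From each list the 2 tested genes with the largest absolute difference, the most abundant one and ligands or binding proteins reaching 1 FPKM are named, as are the 3 rows nearest in pattern to Erbb3 and Egfr, passing over unnamed models and small RNAs; some genes that this rule names are not reported here. Mir6917, Gm16159, Lrig1, Fgfrl1, Fgfr4, Nrg1, Igf1 and single markers were chosen after their values were seen. Loci and sequences are from RefSeq GRCm38.p6, exons and lengths from GENCODE M21. A transcript length was found for 93.7% of tested rows. Promoter sequences were matched for 6 of 9 receptors and are not shown.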

Additional observations from a re-analysis of the deposited data

How the results depend on the processing

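No receptor and no other row passed at an adjusted p under 0.05 in limma under any of the 13 alternatives (0 in each). Erbb3 and Fgfr1 stayed higher, and Erbb4, Fgfr2 and Fgfr3 lower, in KO under all 13. As the groups of these genes do not overlap, only the changes of scaling could have reversed their signs. Egfr changed sign to -0.76 without WT replicate 1 and to -0.874 without KO replicate 2, and lay between -0.874 and 1.12 without 1 library. Igf1r and Insr changed sign in 1 alternative each and Erbb2, at about 0, in 3. The median over the receptors was -0.261 with a pseudocount of 0.1, against -0.04, and lay between -0.115 and -0.01 without 1 library. That pseudocount also enlarged the difference of Erbb3 to 2.84, as the values are near the pseudocount of 1. The count of rows at an unadjusted p under 0.05 was 608, and it was 1123 with no filter, which tests more rows, and 322 to 618 without 1 library. With the replicate number as a replicate block it was 1025 and Erbb3 had an adjusted p of 0.438. Deviations of same-numbered libraries correlated at 0.289 over tested rows, but the labels do not say what a number marks, so the pairing is not taken as given. Leaving out a library leaves 1 in its group, which is then assumed to vary like the other group. Depth limits Erbb2, Fgfr3 and Mir6917, which rest on few reads.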

Other observations

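Erbb3 belonged to a set of rows that were low in 1 genotype and higher in the other. Of 35869 rows, 57 were at 1 FPKM or more in both KO libraries and below 0.2 FPKM in both WT libraries. Kit and Mir6917 were among them, and 28 rows had the opposite pattern. In WT, Erbb3 was at 0.173 and 0.142 FPKM, about 39 and 37 reads. Its place in the set depends on the cut-off of 0.2 FPKM. A 0 or a value near it can be a failed estimate in this table.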
